A study of Mus musculus with 18 samples.

Results

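Collagen genes were described in RNA sequencing of mouse colon taken on day 2, in 3 groups of 6 samples. The members were chosen by name alone, as every row of the expression table whose symbol reads Col, a type number, the letter a and a chain number, such as Col3a1. The rule found 44 genes among 35976 rows, and by the assembly of their proteins 11 were classed as fibrillar, 9 as basement membrane and 24 as other. The family, its classes and the gene lists used below were chosen with earlier results of these data known. The first group had colitis induced with TNBS, a hapten used to set off acute inflammation of the colon, and received ISM012-042, a PHD inhibitor whose action is restricted to the gut, per the series title. The second group had TNBS colitis and received the vehicle, and the third group was sham, without colitis. The sources used here do not give strain, sex, age, dose or route. The labels do not say whether each sample came from an animal of its own, so p-values measure only how far these samples spread, which may be technical in part.

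Collagens are secreted proteins of the extracellular matrix built from a triple helix of alpha chains, each chain being the product of its own gene. Fibrillar collagens form the tension-bearing fibres of the submucosa, basement membrane collagens form the sheets under the epithelium and around vessels and muscle, and the other classes coat fibrils, build beaded filaments or span the cell membrane. In the gut wall they are made mainly by fibroblasts, smooth muscle and, for the basement membrane, endothelium. The helix is stable only after prolyl 4-hydroxylases of the endoplasmic reticulum have hydroxylated prolines in the chains. The PHD enzymes are relatives of these that act on hypoxia-inducible factor (HIF) instead, marking it for degradation, and the genes of several collagen-modifying enzymes are known targets of HIF.

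The regulatory sequence before the start of 3 fibrillar genes is shown because Col3a1 had the highest level of the family and because the windows of Col5a1 and Col5a3 hold the core letters of the element that HIF binds. RefSeq, on GRCm38.p6, gave promoter entries for 35 of the 44 genes, with 38 start sites, and the 250 bases before each start were searched on both strands for ACGTG or GCGTG (the HIF core), CCAAT and TATAAA, each of which is set in capitals. Matches on opposite strands can share letters, as in CACGTG, but no match in the stretches printed shares a letter with another. The stretches printed lie at chr1:45311288-45311537 on the + strand for Col3a1, at chr2:27886175-27886380 on the + strand for Col5a1 and at chr9:20815118-20815317 on the - strand for Col5a3, written 5′ to 3′ and ending before the RefSeq gene model.
Col3a1: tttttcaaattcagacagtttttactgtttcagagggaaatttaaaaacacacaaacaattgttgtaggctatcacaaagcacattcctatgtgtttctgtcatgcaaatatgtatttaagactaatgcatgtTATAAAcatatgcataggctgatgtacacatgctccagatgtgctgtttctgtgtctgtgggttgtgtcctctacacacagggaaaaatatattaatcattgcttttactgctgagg
Col5a1: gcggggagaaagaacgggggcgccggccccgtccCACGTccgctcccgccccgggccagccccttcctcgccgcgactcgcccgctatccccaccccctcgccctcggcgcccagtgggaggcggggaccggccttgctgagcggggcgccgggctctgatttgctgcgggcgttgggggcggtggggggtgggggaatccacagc
Col5a3: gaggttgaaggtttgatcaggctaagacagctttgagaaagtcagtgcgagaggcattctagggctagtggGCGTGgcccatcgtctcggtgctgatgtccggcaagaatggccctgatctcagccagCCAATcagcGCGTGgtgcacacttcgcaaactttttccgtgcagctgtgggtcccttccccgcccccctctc
The Col3a1 stretch is AT-rich, with 35.2% G or C, and holds 1 TATAAA. The Col5a1 stretch of 206 bases has 77.7% G or C and 1 HIF core, and the Col5a3 stretch of 200 bases has 58.0% G or C, 2 HIF cores and 1 CCAAT. Over the family, 11 of 38 windows held a HIF core, against 38.6% of the 32851 windows of all genes, 13 held CCAAT, against 33.8%, and 5 held TATAAA, against 12.4%. These are matches of letters and not binding sites.

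The values are TPM, a unit scaled to gene length and to 1 fixed total per library, so that levels of different genes can be set side by side and the sequencing depth is unknown. Differences are given on the scale of log2(TPM + 1), with their SE, which understates the change of genes with low levels. A gene was tested when it reached 1 TPM in at least 6 libraries, which held for 14129 genes and 25 of the 44 collagen genes, and called when its adjusted p from limma was under 0.05. Markers of colon epithelium summed to 6502 to 15029 TPM and those of smooth muscle to 1519 to 5368 TPM over the libraries, so the defining markers of the labelled tissue were present. The libraries also differed within the groups. Over all 18, the transcripts of the mitochondrial genome took 20.1% to 57.8% of the total, and Hoxb13, a gene of the distal colon, lay between 0.329 and 288 TPM. The Hoxb13 level differed between groups too, with medians of 59.7 TPM in ISM012-042, 43.9 TPM in vehicle and 224 TPM in sham samples. ISM012-042 replicate 2 stood apart from the rest of its group for collagen, as described below, and values without it stand beside the results it moves most.

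The family covered a wide range of levels, and a few genes of types I, III, IV and VI made up most of it. Col3a1, the single chain of type III collagen, was first, with a mean of 212 TPM over the 18 libraries, and it took 15.7% to 42.6% of the summed collagen level of a library. Col1a2 (61.5 TPM), Col4a1 (51.6), Col6a1 (48.2), Col1a1 (44.5), Col6a2 (39.95) and Col4a2 (32.5) followed in mean level. Col5a2 (22.7), Col6a3 (15.0), Col5a1 (14.3) and Col18a1 (11.5) came next, and Col16a1 (9.97), Col12a1 (8.31), Col15a1 (7.81), Col14a1 (6.47) and Col5a3 (5.50) completed the 16 genes with a mean of at least 5 TPM. All neighbours in this order overlapped in their ranges over the libraries. On GRCm38.p6 these genes are spread over the genome, with Col3a1 at chr1:45311538-45349706, Col1a2 at chr6:4505618-4541543, Col1a1 at chr11:94936224-94953042, Col6a1 at chr10:76708792-76726044 and Col4a1 at chr8:11198423-11312889. Of those 16 genes 6 are fibrillar, 4 belong to the basement membrane and 6 to the other classes.

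**Figure D1:**
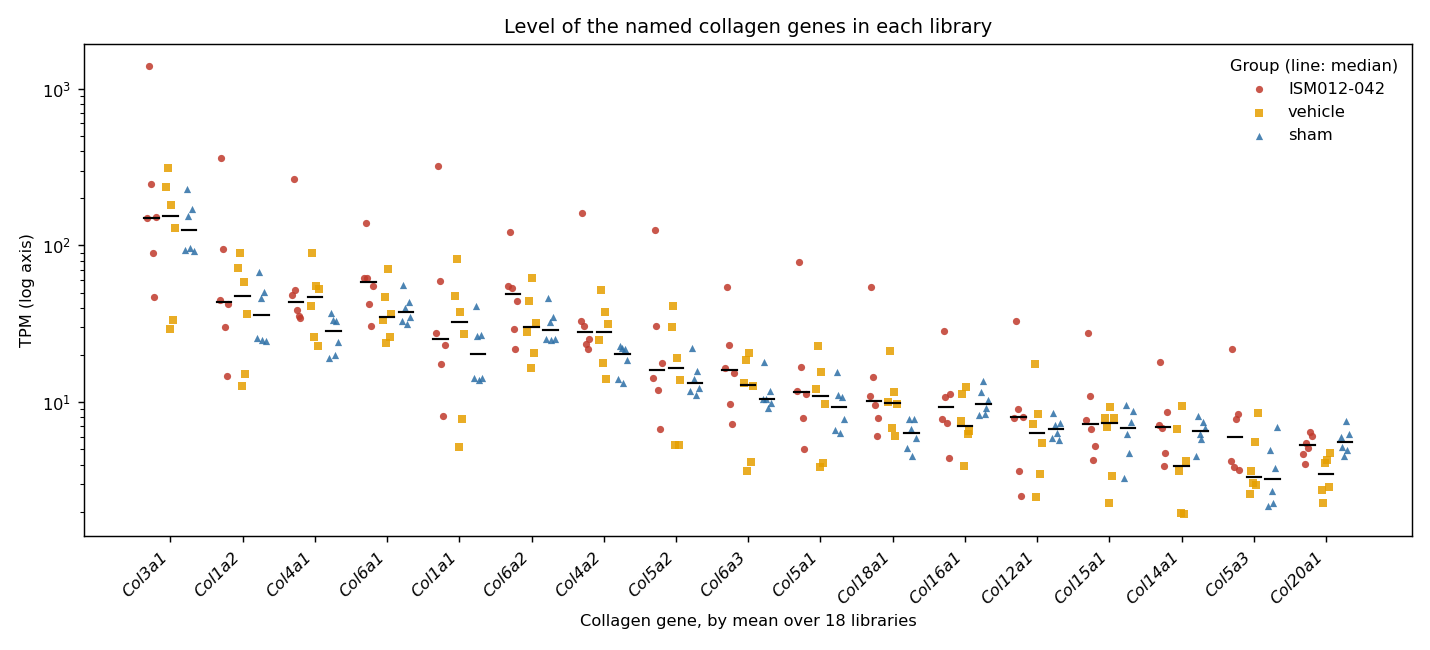
TPM on a log axis of the 16 collagen genes with a mean of at least 5 TPM and of Col20a1, 1 point a library, in ISM012-042, vehicle and sham samples (n = 6 each). The highest ISM012-042 point of most genes, such as 1385 TPM for Col3a1, is replicate 2, the short lines are medians, and the groups overlap in every gene.

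Another 8 tested genes had lower levels. The fibrillar chains Col27a1 and Col11a2, both best known from cartilage, ranged from 2.77 to 10.1 TPM and from 0.727 to 1.85 TPM over all libraries. The short-chain Col8a1 of vessel walls ranged from 0.860 to 23.4 TPM, Col4a5, a type IV chain of more restricted sites, from 1.70 to 5.64 TPM, and the membrane-spanning Col23a1 from 1.05 to 4.24 TPM. The beaded-filament chains Col6a5, Col6a4 and Col28a1 ranged from 0.448 to 4.31, from 1.11 to 3.35 and from 1.245 to 3.905 TPM. The remaining 19 genes did not pass the filter, and 14 of them never reached 1 TPM, with a highest value of 0.982 TPM for Col25a1. Those that reached it in 1 to 5 libraries were Col13a1 (highest 1.81 TPM), Col8a2 (1.202), Col7a1 (1.21), the chain of the anchoring fibrils, Col9a2 (1.19) and Col11a1 (1.14). The kidney and lung chains Col4a3 and Col4a4, with Col4a6, stayed at or below 0.147 TPM. The cartilage genes Col2a1, Col9a1 and Col10a1 stayed at or below 0.093 TPM, as did Col19a1 and Col26a1, and were listed at 0 in 12, 8, 15, 4 and 12 of 18 libraries. The highest values of the others were 0.720 TPM for Col9a3, 0.546 for Col6a6, 0.426 for Col24a1, 0.385 for Col17a1, the collagen of hemidesmosomes, and 0.205 for Col22a1. No collagen gene was at 0 in every library. Cartilage markers were absent or nearly so, with a summed level of at most 0.911 TPM and with Matn3 at 0 in 18 of 18 libraries.

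The collagen level differed more between libraries of a group than between groups. The summed level of the 44 genes had a lowest, median and highest value of 253, 523 and 3256 TPM in ISM012-042 samples, of 187, 527 and 889 TPM in vehicle samples and of 312, 404 and 635 TPM in sham samples. The highest, 3256 TPM, was ISM012-042 replicate 2, which had the highest value of its group for 21 of the 25 tested genes. ISM012-042 replicate 5 had the lowest value of its group for 19 of them. In the vehicle group replicates 3 and 5, with sums of 187 and 199 TPM, were lowest for 13 and 6 genes, and replicates 2 and 4 were highest for 10 each, while sham replicate 2 was highest for 15. The median SD of log2(TPM + 1) over the 25 genes was 0.87 in ISM012-042, 0.68 in vehicle and 0.33 in sham samples, against 0.30, 0.45 and 0.25 over all genes tested. The spread was wider than in sham for 20 of 25 collagen genes in ISM012-042 samples (60.9% of all genes) and for 20 of 25 in vehicle samples (83.0% of all genes). In bulk tissue, fewer cells of a type and less RNA per cell cannot be told apart.

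**Figure D2:**
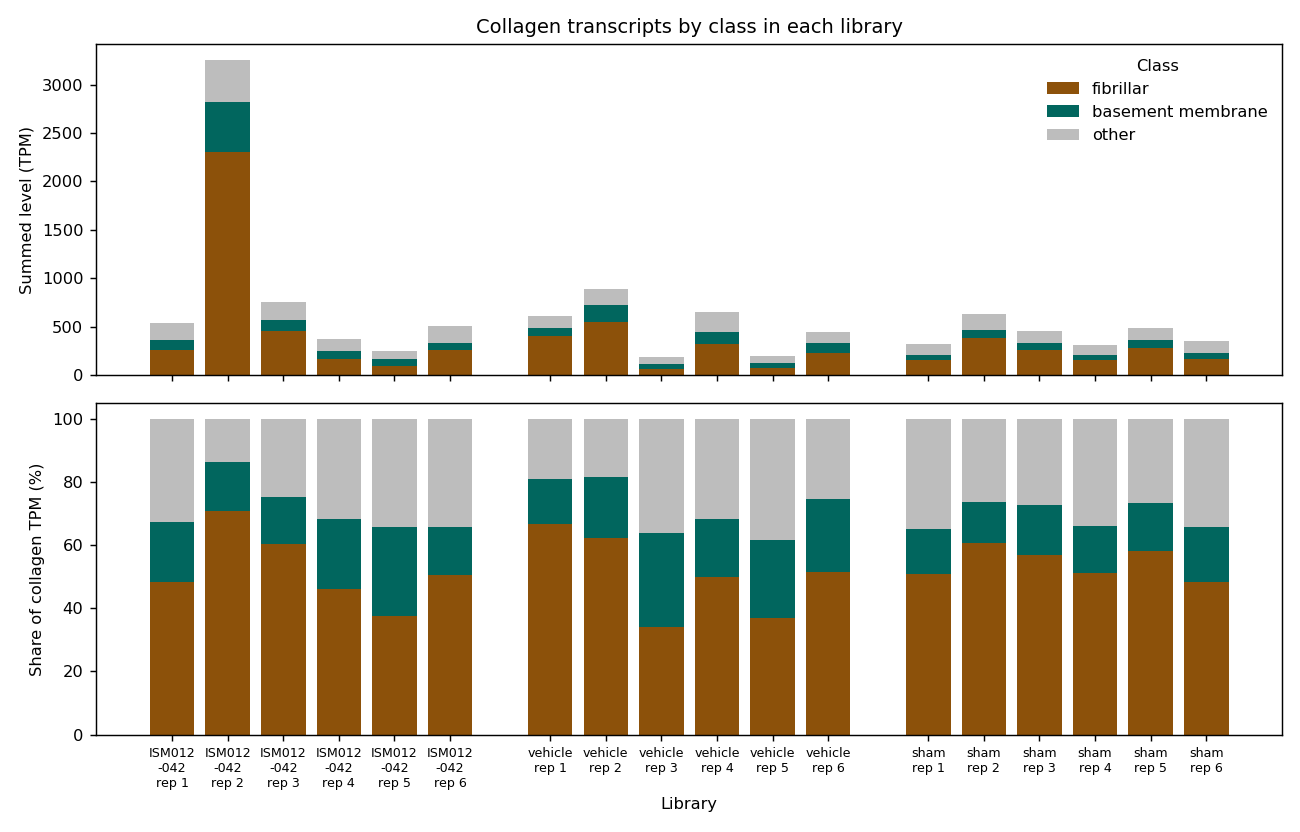
Stacked bars of the summed TPM of fibrillar, basement membrane and other collagen genes in each library (top) and of the share of each class in the collagen sum in percent (bottom), with 6 libraries each of ISM012-042, vehicle and sham from left to right. ISM012-042 replicate 2 reaches 3256 TPM, and the fibrillar share is lowest in vehicle replicates 3 and 5 and ISM012-042 replicate 5, at 34.0%, 36.8% and 37.6%.

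The mix of classes differed between libraries. Fibrillar genes took 37.6% to 70.7% of the collagen sum in ISM012-042 samples, 34.0% to 66.8% in vehicle samples and 48.5% to 60.6% in sham samples. The libraries of lowest fibrillar share were vehicle replicates 3 and 5 and ISM012-042 replicate 5, which also had the lowest collagen sums. In these the basement membrane genes took 29.8%, 24.7% and 28.1%, against 13.1% to 17.3% in sham samples. Shares above the sham range were also found at higher collagen sums, at 23.3% in vehicle replicate 6 (448 TPM) and 22.3% in ISM012-042 replicate 4 (369.8 TPM). The sham libraries with the lowest sums, replicates 4, 1 and 6 at 312, 319 and 352 TPM, had 14.8%, 14.2% and 17.3%. The last of these was the highest sham share. Vehicle replicates 3 and 5 and ISM012-042 replicate 5 had Hoxb13 levels of 3.01, 1.52 and 0.329 TPM and mitochondrial shares of 43.1%, 57.8% and 39.8%. Vehicle replicate 4, with 3.40 TPM of Hoxb13 and a mitochondrial share of 45.2%, had a collagen sum of 650 TPM.

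The ratios of partner chains varied less between libraries than the ratio of Col4a1 to Col3a1, genes of different classes. Across the 18 libraries Col4a1 stood at 1.31 to 1.72 times the level of Col4a2, its partner in the common type IV trimer, and Col6a1 at 1.05 to 1.45 times that of Col6a2. Col1a1 lay between 0.410 and 0.913 times the level of Col1a2, the other chain of type I collagen, and Col1a2 between 0.256 and 0.456 times that of Col3a1. Col6a1 stood at 2.52 to 6.55 times Col6a3, and Col5a1 at 0.400 to 0.830 times Col5a2. Some genes of 1 class that are not partners varied less than partners. The highest ratio was 1.62 times the lowest for Col18a1 to Col4a1 and 1.78 times for Col1a2 to Col3a1, against 2.23 times for Col1a1 to Col1a2. The ratio of Col4a1 to Col3a1 ranged from 0.192 to 0.762 in ISM012-042 samples, from 0.174 to 0.888 in vehicle samples and from 0.162 to 0.263 in sham samples. Col4a1 and Col4a2 lie head to head on chromosome 8, their RefSeq models overlap by 85 bases, and since the strand setting of the count is not stated, reads in the overlap cannot be assigned to either gene. These ratios describe the libraries and were not tested.

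**Figure D3:**
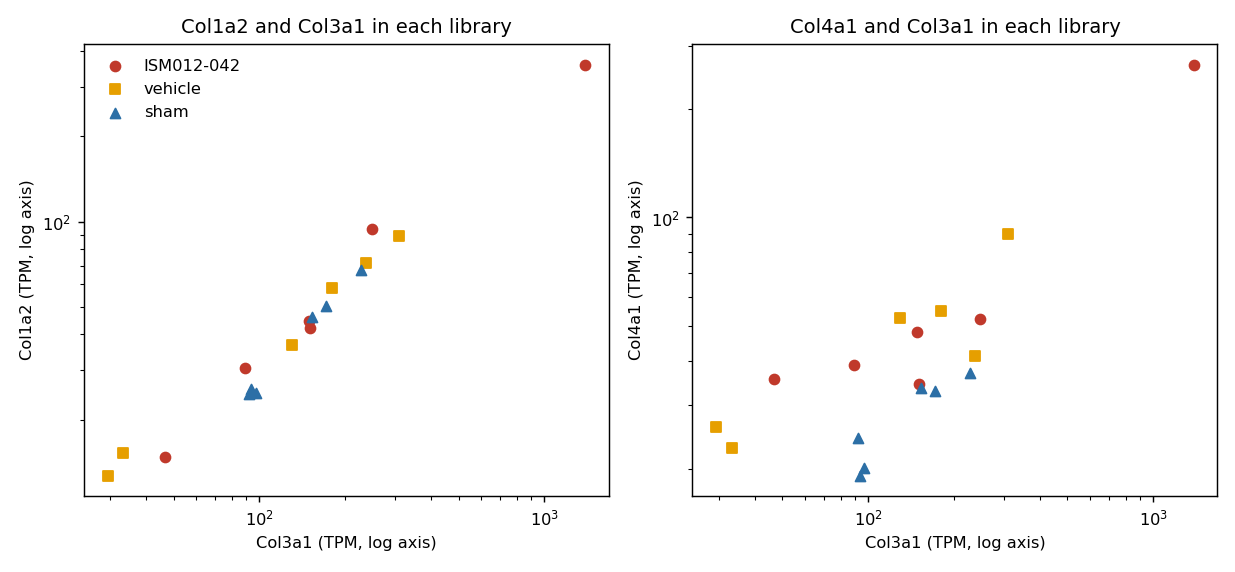
Levels of Col1a2 (left) and Col4a1 (right) against Col3a1 in each library, in TPM on log axes, with ISM012-042, vehicle and sham samples in different colours and shapes. Col1a2 keeps a ratio of 0.256 to 0.456 to Col3a1, while the ratio of Col4a1 to Col3a1 spans 0.162 to 0.888.

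The design gave 3 comparisons, which share their groups. In vehicle samples 1 of 25 collagen genes was called lower than in sham by limma, against 4.13% of all genes tested, and 0 higher, against 0.326%. Over all genes the calls were 46 higher and 584 lower, and 517 and 961 with median-ratio scaling. At an unadjusted p under 0.05 there were 2 lower, against 14.9% of all genes, and 0 higher, against 3.16%. In ISM012-042 samples against sham 0 collagen genes were called higher or lower in limma, against 0.545% and 0.871% of all genes (77 and 123 genes, and 137 and 618 with median-ratio scaling). At an unadjusted p under 0.05 there were 4 higher (Col4a1, Col4a2, Col18a1 and Col5a3) and 0 lower, against 16.3% and 4.44%. In ISM012-042 against vehicle samples no gene of the table was called in either direction by limma (0%), and at an unadjusted p under 0.05 there were 5 collagen genes higher (Col6a1, Col14a1, Col11a2, Col20a1 and Col4a5), against 18.9% of all genes, and 0 lower, against 0.127%. Among these 5, Col11a2 stayed at or below 0.871 TPM in vehicle samples and passed the filter through the other groups alone. No collagen gene had groups that did not overlap in any comparison. The share of all genes without overlap was 0.651% higher and 0.0212% lower between ISM012-042 and vehicle, 3.8% and 1.05% between ISM012-042 and sham, and 0.687% and 1.91% between vehicle and sham.

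**Figure D4:**
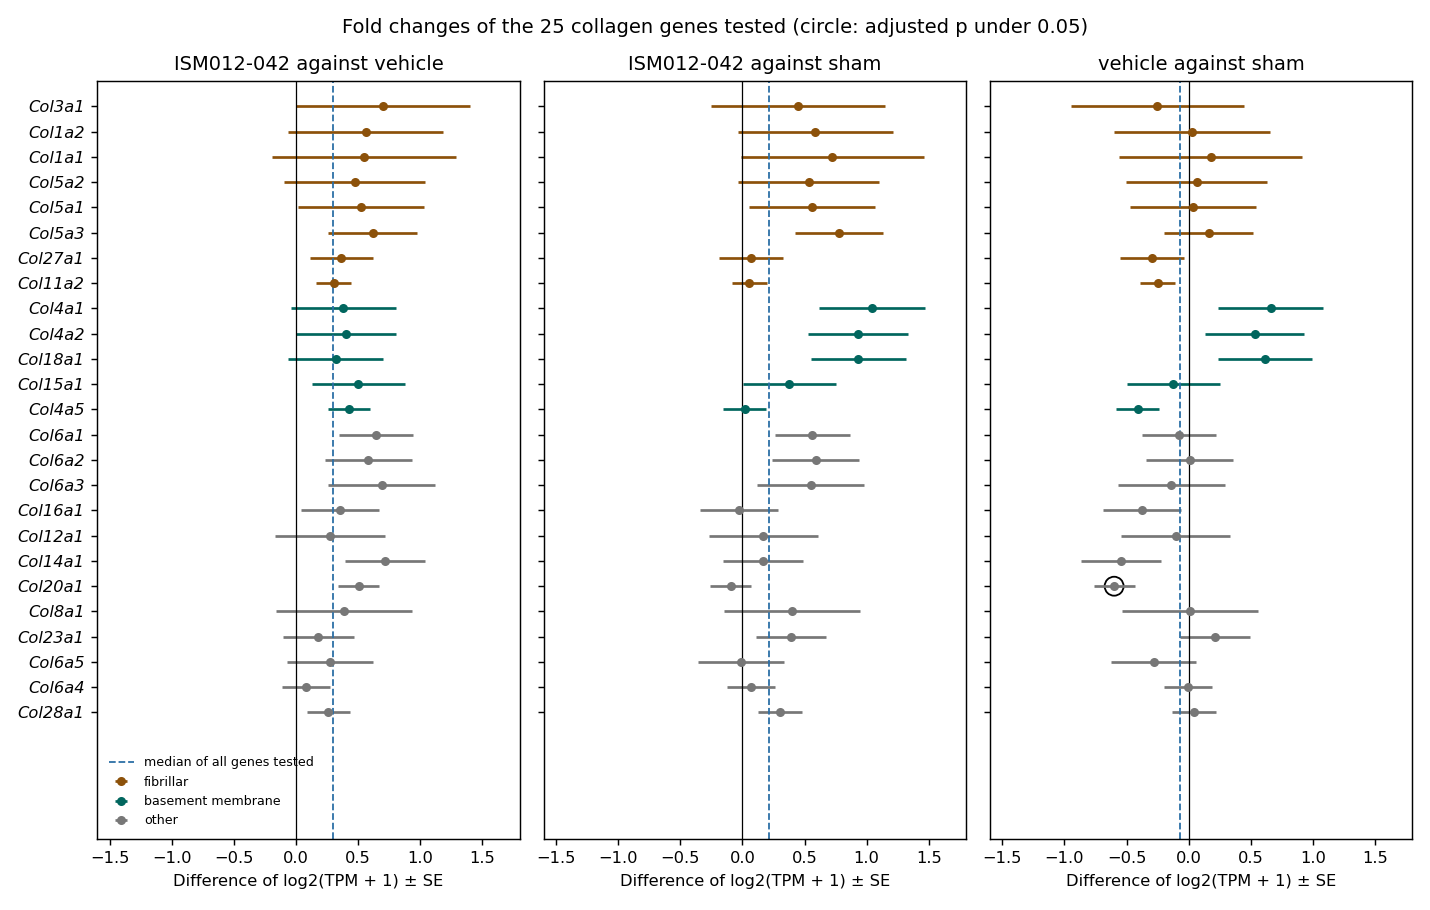
Differences of log2(TPM + 1) with SE for the 25 tested collagen genes, by class, for ISM012-042 against vehicle, ISM012-042 against sham and vehicle against sham. The dashed line is the median of all genes tested, and the circle marks Col20a1, at -0.60 ± 0.17 in vehicle against sham, the single collagen gene with an adjusted p under 0.05.

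No fibrillar gene passed the test in any comparison, and the libraries of the colitis groups spread widely. Col3a1 had a lowest, median and highest level of 46.7, 149.8 and 1385 TPM in ISM012-042 samples, of 29.3, 155 and 309 TPM in vehicle samples and of 92.3, 125 and 227 TPM in sham samples. The vehicle range covered the whole sham range, with replicates 3 and 5 below it and replicates 1 and 2 above it. Its difference was 0.70 ± 0.70 for ISM012-042 against vehicle and -0.25 ± 0.70 for vehicle against sham, with adjusted p of 0.498 and 0.895 in limma. Col1a2 and Col1a1 encode the chains of type I collagen, the main fibrillar collagen of most tissues. In the same order of values, Col1a2 stood at 14.8, 43.4 and 359 TPM in ISM012-042, at 12.7, 47.4 and 89.2 TPM in vehicle and at 24.6, 35.8 and 67.5 TPM in sham samples. Col1a1 stood at 8.15, 25.4 and 322 TPM in ISM012-042, at 5.20, 32.3 and 81.5 TPM in vehicle and at 13.8, 20.4 and 41.3 TPM in sham samples. For both, ISM012-042 replicate 2 was the highest library of all and vehicle replicate 3 the lowest, and the groups overlapped. Their differences were 0.56 ± 0.62 and 0.55 ± 0.74 for ISM012-042 against vehicle, and 0.03 ± 0.62 and 0.18 ± 0.74 for vehicle against sham. Without ISM012-042 replicate 2, the difference of ISM012-042 from vehicle samples was 0.11 for Col3a1, 0.03 for Col1a2 and -0.08 for Col1a1.

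Type V chains enter type I fibrils and limit their width. Col5a2 stood at 6.76, 15.98 and 125 TPM in ISM012-042, at 5.35, 16.5 and 41.1 TPM in vehicle and at 11.1, 13.2 and 22.2 TPM in sham samples. Col5a1 stood at 5.05, 11.6 and 77.9 TPM in ISM012-042, at 3.89, 10.9 and 22.7 TPM in vehicle and at 6.41, 9.31 and 15.7 TPM in sham samples. As for the type I genes, the 3 groups overlapped, and the highest and lowest libraries of the colitis groups were ISM012-042 replicates 2 and 5 and vehicle replicates 2 and 3. Col5a3, a minor chain, stood at 3.71, 5.99 and 21.8 TPM in ISM012-042, at 2.61, 3.36 and 8.55 TPM in vehicle and at 2.18, 3.25 and 6.99 TPM in sham samples. Its difference of ISM012-042 from sham samples was 0.78 ± 0.36 (adjusted p = 0.231 in limma), 0.47 without ISM012-042 replicate 2. Over the 8 fibrillar genes tested the median difference was 0.54 between ISM012-042 and vehicle, where all genes had 0.30, 0.55 between ISM012-042 and sham, where all genes had 0.21, and 0.03 between vehicle and sham, where all genes had -0.07. The first 2 of these rested on ISM012-042 replicate 2, without which they were 0.08 and 0.07, where all genes had 0.23 and 0.16.

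Col4a1, Col4a2 and Col18a1 of the basement membrane had the largest positive differences of the family between ISM012-042 and sham samples, and none was called. Col4a1, the commonest type IV chain, stood at 34.5, 43.5 and 266 TPM in ISM012-042, at 22.8, 46.8 and 89.7 TPM in vehicle and at 19.1, 28.7 and 36.9 TPM in sham samples. Col4a2, its partner, stood at 21.8, 28.0 and 159.8 TPM in ISM012-042, at 14.0, 28.1 and 52.1 TPM in vehicle and at 13.3, 20.2 and 22.9 TPM in sham samples. Col18a1, from which the fragment endostatin is cut, stood at 6.08, 10.2 and 54.2 TPM in ISM012-042, at 6.06, 9.89 and 21.1 TPM in vehicle and at 4.55, 6.34 and 7.86 TPM in sham samples. In these 3 genes the medians of both colitis groups lay above the highest sham library, while the lowest colitis libraries overlapped with sham. The differences of ISM012-042 from sham were 1.04 ± 0.43 for Col4a1, 0.93 ± 0.40 for Col4a2 and 0.93 ± 0.38 for Col18a1, with adjusted p of 0.199, 0.211 and 0.198 in limma. Those of vehicle from sham were 0.66 ± 0.43, 0.53 ± 0.40 and 0.61 ± 0.38, with adjusted p of 0.447, 0.531 and 0.425. Hoxb13 is known as a marker of the most distal colon, and its level differed widely within each group. Its median was 59.7 TPM in ISM012-042, 43.9 TPM in vehicle and 224 TPM in sham samples. Hoxb13 level and group are thus confounded in part, and their parts in a difference from sham cannot be fully told apart. With the Hoxb13 level as a covariate, Col18a1 (1.14, adjusted p = 0.0451 in limma) and Col4a1 (1.26, adjusted p = 0.0477) passed for ISM012-042 against sham. These were 2 of 25 collagen genes, in a fit that called 1108 of 14129 genes higher, against 77 without the covariate. In the same fit without ISM012-042 replicate 2 Col18a1 and Col4a1 did not pass, at 0.71 (0.121) and 0.79 (0.128). There Col18a1 passed for vehicle against sham, at 0.83 (0.0423), where 247 of all genes were called higher. Without that library and with no covariate, the differences of ISM012-042 from sham were 0.60 for Col4a1, 0.51 for Col4a2 and 0.53 for Col18a1.

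Endothelial, mesothelial and adipocyte markers all had positive differences from sham in both colitis groups, as these genes did, and so had the 2 of 6 squamous markers tested. Krt13, a squamous marker, and Cxcr2, a neutrophil marker, had at most 0.985 and 0.272 TPM in sham samples. Both passed the filter through colitis libraries alone, which favours a positive difference from sham. Of all genes 77.1% were positive in ISM012-042 and 41.3% in vehicle samples. In the same order, positive differences were found for 3 and 4 of 4 enteric glia, 5 and 5 of 6 neutrophil and 8 and 6 of 12 fibroblast markers. They were fewer for epithelium, with 3 and 2 of 9, and smooth muscle, with 1 and 0 of 9. The summed endothelial level was 50.95 to 243 TPM in ISM012-042, 43.9 to 78.6 TPM in vehicle and 28.7 to 48.7 TPM in sham samples, with the highest value in ISM012-042 replicate 2. The 8 endothelial markers had median differences from sham of 0.71 in ISM012-042 (0.36 without replicate 2) and 0.28 in vehicle samples, beside 0.21 and -0.07 over all genes. The 5 mesothelial markers had medians of 0.98 in ISM012-042 (1.08 without replicate 2) and 0.37 in vehicle samples. The 6 adipocyte markers had medians of 2.59 in ISM012-042 (2.44 without replicate 2) and 0.97 in vehicle samples. No endothelial, mesothelial or adipocyte marker was called. The part of these cells in the levels of Col4a1, Col4a2 and Col18a1 was not tested. Col15a1, another collagen of the basement membrane zone, stood at 4.27, 7.23 and 27.7 TPM in ISM012-042, at 2.29, 7.42 and 9.37 TPM in vehicle and at 3.26, 6.89 and 9.55 TPM in sham samples, with nearly equal medians. Its difference was 0.38 ± 0.37 for ISM012-042 against sham, 0.06 without ISM012-042 replicate 2, and -0.12 ± 0.37 for vehicle against sham.

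Among the other classes the type VI chains, which build the beaded filaments around cells, had higher medians in ISM012-042 samples. Col6a1 stood at 30.6, 58.5 and 139 TPM in ISM012-042, at 23.8, 35.2 and 70.5 TPM in vehicle and at 31.7, 37.4 and 55.8 TPM in sham samples. Col6a2 stood at 21.9, 48.7 and 122 TPM in ISM012-042, at 16.6, 29.998 and 62.3 TPM in vehicle and at 24.8, 28.9 and 46.0 TPM in sham samples. Col6a3, the longest of these chains, stood at 7.30, 15.97 and 54.6 TPM in ISM012-042, at 3.63, 12.9 and 20.6 TPM in vehicle and at 9.15, 10.5 and 17.98 TPM in sham samples. The groups overlapped in each, with ISM012-042 replicate 2 and vehicle replicate 4 the highest of their groups and ISM012-042 replicate 5 and vehicle replicate 3 the lowest. The differences of ISM012-042 from vehicle were 0.64 ± 0.30, 0.58 ± 0.35 and 0.69 ± 0.43, with adjusted p of 0.257, 0.317 and 0.330 in limma. In that comparison 92.1% of all genes were positive, with a median of 0.30. Without ISM012-042 replicate 2 the differences of these chains were 0.39, 0.31 and 0.36, beside a median of 0.23 over all genes. Vehicle and sham samples differed by -0.08 ± 0.30, 0.01 ± 0.35 and -0.14 ± 0.43 in these genes.

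Fibril-associated collagens bind the surface of fibrils without forming them. Col20a1, a little-studied member of this group at chr2:180983323-181017545, was the 1 collagen gene of 25 that was called. The call was for vehicle against sham, where 4.13% of all genes were called lower. Col20a1 stood at 4.03, 5.32 and 6.44 TPM in ISM012-042, at 2.28, 3.48 and 4.71 TPM in vehicle and at 4.55, 5.61 and 7.53 TPM in sham samples. The vehicle and sham ranges thus overlapped only between 4.55 and 4.71 TPM. Its difference was -0.60 ± 0.17 for vehicle against sham (adjusted p = 0.0449 in limma). It was 0.51 ± 0.17 for ISM012-042 against vehicle (adjusted p = 0.233) and -0.09 ± 0.17 for ISM012-042 against sham (0.729). The call was lost under 6 of the other settings and on leaving out any of 10 single libraries, and adjusted p then lay between 0.0518 and 0.122. Vehicle replicate 2, the library with the lowest Col20a1 level, had the highest neutrophil marker level of all, at 25023 TPM. Without it and ISM012-042 replicate 2 the difference was -0.52 (adjusted p = 0.0756 in limma), and the part of the cell mix in this difference was not tested.

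Col14a1, which lines type I fibrils, stood at 3.92, 6.997 and 18.2 TPM in ISM012-042, at 1.94, 3.93 and 9.42 TPM in vehicle and at 4.55, 6.54 and 8.15 TPM in sham samples. Col16a1 stood at 4.39, 9.31 and 28.3 TPM in ISM012-042, at 3.92, 7.06 and 12.6 TPM in vehicle and at 8.26, 9.75 and 13.7 TPM in sham samples. Both had their lowest median in vehicle samples, with overlapping groups. Col12a1, a close relative of Col14a1, stood at 2.53, 7.99 and 32.7 TPM in ISM012-042, at 2.48, 6.35 and 17.5 TPM in vehicle and at 5.75, 6.76 and 8.48 TPM in sham samples. Sham was the narrowest group here, and both colitis groups reached below and above it. The differences of vehicle from sham were -0.55 ± 0.32 for Col14a1, -0.38 ± 0.31 for Col16a1 and -0.10 ± 0.44 for Col12a1, and those of ISM012-042 from vehicle 0.71 ± 0.32, 0.35 ± 0.31 and 0.27 ± 0.44, none called. The last 3 were 0.47, 0.07 and -0.12 without ISM012-042 replicate 2. Of the genes with lower levels, Col11a2 and Col4a5 differed by 0.30 ± 0.14 and 0.43 ± 0.17 between ISM012-042 and vehicle samples, with adjusted p of 0.257 and 0.2435 in limma. Col11a2 reached 1 TPM in 8 libraries, none of them vehicle samples, where its highest value was 0.871 TPM. It thus passed the filter only through groups where it was higher, which favours a difference of this sign.

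Between ISM012-042 and vehicle samples all 25 tested collagen genes had positive differences, with a median of 0.43, in a table where 92.1% of all genes did, with a median of 0.30. Median-ratio scaling set the median of all genes to 0.01, and quantile normalization to 0.02. Of the 17 collagen genes named with values, 16 stayed positive under either scaling, and Col12a1 turned to -0.02 and -0.03. Without ISM012-042 replicate 2, 11 of the 17 were positive and their median was 0.07, where it was 0.52 with all libraries, and 6 of the 17 were positive with array weights, which give outlying libraries less weight. Against sham, 22 of 25 collagen genes were positive in ISM012-042 samples (77.1% of all genes) and 12 of 25 in vehicle samples (41.3% of all genes), with medians of 0.40 and -0.01. Without ISM012-042 replicate 2, 16 of 25 were positive against sham with a median of 0.07, beside 73.2% and 0.16 over all genes, and with array weights 6 of the 17 named genes were.

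The enzymes that modify collagen chains were described as a list of 15, of which 14 were tested and 0 called in any comparison. Its median difference was 0.37 between ISM012-042 and vehicle, 0.55 between ISM012-042 and sham and 0.21 between vehicle and sham samples, beside 0.30, 0.21 and -0.07 over all genes. P4ha1, a catalytic subunit of collagen prolyl 4-hydroxylase and a HIF target, had a lowest, median and highest level of 11.2, 21.1 and 50.4 TPM in ISM012-042, of 4.43, 17.3 and 42.3 TPM in vehicle and of 13.8, 21.8 and 23.8 TPM in sham samples. P4ha2, its paralogue, stood at 5.25, 7.41 and 22.9 TPM in ISM012-042, at 2.79, 7.19 and 12.7 TPM in vehicle and at 3.30, 4.38 and 6.65 TPM in sham samples. Plod2, the lysyl hydroxylase of the telopeptides, stood at 2.92, 5.78 and 36.5 TPM in ISM012-042, at 2.80, 5.86 and 15.3 TPM in vehicle and at 3.91, 4.56 and 6.21 TPM in sham samples. All 3 overlapped between the groups, and their differences of ISM012-042 from vehicle were 0.43 ± 0.42, 0.38 ± 0.32 and 0.27 ± 0.43, and 0.19, 0.11 and -0.16 without ISM012-042 replicate 2, their highest library. Colgalt1, which adds galactose to hydroxylysine, was the gene of smallest p against sham, at 18.7 to 48.4 TPM in ISM012-042 and 10.2 to 16.025 TPM in sham samples. The groups did not overlap, and the difference was 0.84 ± 0.27 (adjusted p = 0.117 in limma), 0.66 without ISM012-042 replicate 2. Without that library the median of the list was 0.11 between ISM012-042 and vehicle and 0.25 between ISM012-042 and sham samples. Of the 11 genes of folding and export 11 were tested and 0 called, with medians of 0.27, 0.42 and 0.17 in the same comparisons. Without ISM012-042 replicate 2 the first 2 of these were 0.08 and 0.21, where all genes had 0.23 and 0.16. Serpinh1, the collagen chaperone, stood at 30.7, 67.97 and 419 TPM in ISM012-042, at 13.4, 80.6 and 151.5 TPM in vehicle and at 35.6, 56.2 and 105 TPM in sham samples, with its highest and lowest values in the colitis groups. Its difference of ISM012-042 from vehicle samples was 0.40 ± 0.58, and -0.08 without ISM012-042 replicate 2.

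Propeptide removal and cross-linking were represented by 14 genes, with 10 tested and 0 called and with a median difference from sham of 0.47 in ISM012-042 and 0.16 in vehicle samples. Lox, a lysyl oxidase that starts the cross-links of fibrils and is a HIF target, stood at 2.11, 3.36 and 95.6 TPM in ISM012-042, at 3.29, 5.88 and 22.3 TPM in vehicle and at 1.40, 1.46 and 2.26 TPM in sham samples. Every vehicle library was above every sham library, and ISM012-042 samples overlapped with both. The differences from sham were 1.56 ± 0.64 for ISM012-042 and 1.60 ± 0.64 for vehicle, with adjusted p of 0.200 and 0.180 in limma. Without ISM012-042 replicate 2, which had 95.6 TPM of Lox, the difference of ISM012-042 from sham was 0.82 for Lox and 0.72 for Tgm2, described next, and the median of the list was 0.08. Tgm2, a transglutaminase, ranged from 45.9 to 242 TPM in ISM012-042, from 33.05 to 186 TPM in vehicle and from 25.7 to 43.0 TPM in sham samples, with differences from sham of 1.07 ± 0.40 in ISM012-042 and 1.14 ± 0.40 in vehicle samples. The ISM012-042 and sham groups of Tgm2 did not overlap, and adjusted p was 0.167 in limma.

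Partners of the fibrils numbered 13, with 12 tested and 0 called, and 4 of the 12 had positive differences in vehicle against sham samples, with a median of -0.26. The small proteoglycans Ogn and Aspn differed there by -0.66 ± 0.22 and -0.83 ± 0.34, with adjusted p of 0.104 and 0.199 in limma. Of 15 basement membrane partners 14 were tested, and 1, Agrn, was called, as lower in vehicle than in sham samples, where 4.13% of all genes were called lower. The median difference of the 14 was 0.56 between ISM012-042 and sham and 0.05 between vehicle and sham samples. Agrn, which encodes the heparan sulfate proteoglycan agrin, stood at 20.9, 24.1 and 28.6 TPM in ISM012-042, at 11.6, 18.6 and 24.1 TPM in vehicle and at 17.7, 37.9 and 52.1 TPM in sham samples, and fell by 0.92 ± 0.22 in vehicle against sham (adjusted p = 0.0238 in limma). This call was not examined under the other settings, several of which removed the Col20a1 call in the same comparison. The laminin and nidogen genes Lama4, Nid1, Lamb1 and Lamc1 were those of smallest p for ISM012-042 against sham, with differences of 0.80 ± 0.31, 0.75 ± 0.29, 0.71 ± 0.29 and 0.77 ± 0.32 and adjusted p between 0.171 and 0.202. Without ISM012-042 replicate 2 these were 0.52, 0.47, 0.44 and 0.45, and the median of the 14 was 0.34.

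Of 10 collagen receptors 7 were tested and 0 called, with a median difference of 0.42 between ISM012-042 and vehicle samples, 0.30 without ISM012-042 replicate 2. Ddr1, a receptor kinase of epithelium that binds fibrillar collagen, ranged from 37.94 to 46.6 TPM in ISM012-042, from 25.96 to 41.3 TPM in vehicle and from 29.3 to 37.90 TPM in sham samples, and differed by 0.35 ± 0.13 between ISM012-042 and vehicle samples (adjusted p = 0.234 in limma). All 8 collagen-cleaving proteases and inhibitors were tested and 0 were called, with a median difference from sham of 0.68 in ISM012-042 samples, 0.33 without replicate 2, and of 0.67 in vehicle samples. Timp1, an inhibitor of matrix metalloproteinases, stood at 4.20, 11.3 and 649 TPM in ISM012-042, at 13.9, 32.3 and 221 TPM in vehicle and at 2.24, 3.61 and 6.56 TPM in sham samples. Mmp8, the neutrophil collagenase, ranged from 0 to 45.5 TPM in ISM012-042, from 1.33 to 164 TPM in vehicle and from 0 to 0.309 TPM in sham samples. Vehicle and sham did not overlap in either gene, beside 0.687% of all genes that were higher in vehicle without overlap. The differences of 2.98 ± 0.92 and 2.89 ± 0.94 had adjusted p of 0.0745 and 0.0897 in limma. Mmp8 stayed below 1 TPM in sham samples and passed the filter only through colitis libraries, which favours such a difference. Of 6 neutrophil markers 3, S100a8, S100a9 and Retnlg, rose in vehicle against sham samples (adjusted p of 0.00605 to 0.0167 in limma), and 5 had positive differences, while Ly6g differed by -1.14 ± 1.18. The summed level was 91.2 to 6938 TPM in ISM012-042, 176 to 25023 TPM in vehicle and 32.7 to 716 TPM in sham samples, where most of it was Ly6g. Ly6g had a median of 125.6 TPM in ISM012-042, 174 TPM in vehicle and 415 TPM in sham samples, and S100a8 of 79.3, 227 and 2.57 TPM in the same groups. Their part in the Mmp8 level was not tested.

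Of 13 genes of TGF-beta and profibrotic signals, the best known inducers of collagen transcription, 11 were tested and 1 was called, as lower in vehicle against sham samples, where 4.13% of all genes were. The median difference from sham was 0.31 in ISM012-042 samples, 0.09 without replicate 2, and -0.01 in vehicle samples. Smad7, the inhibitory SMAD of the pathway, stood at 10.97, 15.2 and 17.7 TPM in ISM012-042, at 8.59, 10.7 and 14.1 TPM in vehicle and at 17.2, 19.7 and 24.2 TPM in sham samples. Vehicle and sham did not overlap, and Smad7 fell by 0.80 ± 0.14 in vehicle against sham (adjusted p = 0.00469 in limma), a call not examined under the other settings. The difference was 0.39 ± 0.14 for ISM012-042 against vehicle (adjusted p = 0.233) and -0.41 ± 0.14 for ISM012-042 against sham (0.135). Tgfb1, the ligand, differed from sham by 0.93 ± 0.43 in ISM012-042 samples (0.57 without replicate 2) and by 0.73 ± 0.43 in vehicle samples, with adjusted p of 0.234 and 0.403 in limma.

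The markers of the cells that make collagen were not called in any comparison. The summed level of 12 fibroblast markers was 369.9 to 1430 TPM in ISM012-042, 286 to 695 TPM in vehicle and 352 to 536 TPM in sham samples, and its highest library was ISM012-042 replicate 2, as for collagen. The 9 smooth muscle markers had a median difference of -0.68 between vehicle and sham samples, with 0 of 9 positive. Dcn and Lum belong both to the fibroblast markers and to the fibril partners. Adipocyte markers summed to 159 to 3588 TPM in ISM012-042, 31.6 to 2612 TPM in vehicle and 24.0 to 2471 TPM in sham samples, and mesothelial markers to 25.96 to 60.4 TPM in ISM012-042, 10.3 to 47.6 TPM in vehicle and 4.78 to 23.2 TPM in sham samples. Squamous epithelial markers reached 69.9 TPM in ISM012-042 replicate 2 and 46.1 TPM in vehicle replicate 1, with a highest sham value of 2.71 TPM, and Krt4 was at 0 in 10 of 18 libraries. Enteric glia markers summed to 5.01 to 20.9 TPM over all libraries. The part of these cell types in the collagen levels was not tested.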

How the data were processed

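Per the labels' protocols, total RNA of colon was extracted in TRI Reagent and on RNeasy columns and reverse transcribed. The authors deposited 1 table of TPM values for 18 libraries, and the submitters' processing notes name mm10 and DRAGEN 4.0.3 without saying what each did. The sources used here do not give the aligner, the annotation or the strand setting. Each TPM column sums to 1000000, so an abundant class of transcripts lowers all other values, and depth, and with it counting error, is unknown. No 2 libraries were identical.

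Groups and replicate numbers came from the sample titles. log2(TPM + 1) was fitted in limma 3.58.1 (R 4.3.3) with all 18 libraries in 1 fit, trend and robust settings and no covariate, for genes of at least 1 TPM in at least 6 libraries. Benjamini-Hochberg adjustment ran over all 14129 genes tested, with a threshold of 0.05. No count test was used, since TPM are not counts. The fit was tested on simulated data. Collagen genes with a mean of at least 5 TPM or an adjusted p under 0.05 are named with values, the others by their range, and of each pathway list at most 4 genes of smallest p and 6 set genes (P4ha1, P4ha2, Plod2, Lox, Serpinh1 and Hoxb13). The members follow from the rule on the symbol, and the family, classes and lists were chosen with earlier results of these data known. Coordinates and promoters are from RefSeq, GRCm38.p6, the assembly of mm10. Alternatives were other pseudocounts, filters, scalings, weights, covariates and fits, the replicate block, and leaving out each library. Chosen after seeing the data were the removal of vehicle replicate 2 with ISM012-042 replicate 2, the libraries of most neutrophil transcripts, and the Hoxb13 covariate without ISM012-042 replicate 2.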

Additional observations from a re-analysis of the deposited data

Results flagged for a closer look

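In 3 of 75 cases of a tested collagen gene in a group, 1 library lay far from the other 5 on the scale of log2(TPM + 1), with a gap to its nearest neighbour above Dixon's limit, as a share of the group's range. Chance alone flags about 5% of such cases where values are normal and cases independent. Col4a1 and Col4a2, the common type IV chains, were at 266.3 and 159.8 TPM in ISM012-042 replicate 2, with gaps of 0.800 and 0.797 of the range on that scale. Col6a3, a type VI chain, was at 17.98 TPM in sham replicate 2, with a gap of 0.631. On the TPM scale itself 20 of the 75 cases passed the limit, and 16 of these were ISM012-042 replicate 2. The gaps of these 16 were 0.664 to 0.924 of the range, among them Col3a1 (0.850), Col1a1 (0.838) and Col5a2 (0.799). TPM are skewed, so the 5% does not apply on this scale, and the genes of 1 library are not independent cases.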

How the results depend on the processing

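The drop of Col20a1 in vehicle against sham samples, 1 gene called lower, became 0 without the filter, with median-ratio scaling, with quantile normalization, without mitochondrial genes, with only the groups compared and without both neutrophil-rich libraries (adjusted p = 0.0601, 0.0894, 0.105, 0.0933, 0.0943 and 0.0756 in limma). Leaving out 1 library at a time gave 0 to 1 genes called lower, and the call held without vehicle replicate 6 (0.0251) or sham replicate 3 (0.0338). Collagen genes called higher numbered 2 between ISM012-042 and sham with the Hoxb13 covariate (Col18a1 and Col4a1). In the same fit without ISM012-042 replicate 2 there was 1 between vehicle and sham (Col18a1), among 247 of all genes. No other setting moved a count of collagen calls. The calls of Agrn, Smad7, S100a8, S100a9 and Retnlg in vehicle against sham were not examined under the other settings. Over all genes, 77 were called higher between ISM012-042 and sham, 1108 with the Hoxb13 covariate and 2322 with array weights, and 0 between ISM012-042 and vehicle under the same settings. The replicate numbers did not pair the samples, with r over 0.1 in 6 of 18 pairs (-0.38 to 0.61), and the fit with the replicate block left Col20a1 at -0.60 (adjusted p = 0.0426) and the other counts at 0. Of 1377 alternative values 1241 kept sign and side of the threshold, 16 lost the call, 3 gained one and 117 turned sign. The turned values are all of uncalled differences, and the cause was not tested. Values that turned follow by setting. Array weights, which count libraries far from their group less, gave for ISM012-042 against vehicle Col1a1 -0.62, Col1a2 -0.40, Col3a1 -0.45, Col4a1 -0.25, Col4a2 -0.20, Col5a1 -0.25, Col5a2 -0.44, Col6a3 -0.041, Col12a1 -0.43, Col15a1 -0.012 and Col18a1 -0.18, and for ISM012-042 against sham Col1a1 -0.26, Col1a2 -0.30, Col3a1 -0.47, Col5a1 -0.16, Col5a2 -0.20, Col6a3 -0.072, Col12a1 -0.38, Col14a1 -0.30 and Col15a1 -0.071, and for vehicle against sham Col6a2 -0.053 and Col12a1 0.051. The Hoxb13 covariate gave for ISM012-042 against sham Col16a1 0.13, and for vehicle against sham Col3a1 0.52, Col6a1 0.13, Col6a3 0.26, Col12a1 0.28 and Col15a1 0.20. That covariate without ISM012-042 replicate 2 gave for ISM012-042 against vehicle Col1a1 -0.18, Col1a2 -0.055, Col4a1 -0.094, Col4a2 -0.048, Col5a1 -0.0053, Col5a2 -0.10, Col12a1 -0.16 and Col18a1 -0.11, and for vehicle against sham Col3a1 0.38, Col6a1 0.062, Col6a3 0.18, Col12a1 0.18 and Col15a1 0.11. The mitochondrial share as covariate gave for ISM012-042 against vehicle Col1a1 -0.091, Col5a2 -0.061 and Col12a1 -0.091, and for vehicle against sham Col3a1 0.12, Col6a1 0.019, Col6a3 0.078, Col12a1 0.11 and Col15a1 0.024. Median-ratio scaling gave for ISM012-042 against vehicle Col12a1 -0.017, and for ISM012-042 against sham Col12a1 -0.037 and Col14a1 -0.036, and for vehicle against sham Col6a1 0.034. Quantile normalization gave for ISM012-042 against vehicle Col12a1 -0.026, and for ISM012-042 against sham Col12a1 -0.061 and Col14a1 -0.094, and for vehicle against sham Col6a1 0.054. Leaving out mitochondrial genes gave for vehicle against sham Col6a1 0.028. A pseudocount of 5 gave for ISM012-042 against sham Col16a1 0.014. Leaving out both neutrophil-rich libraries gave for ISM012-042 against sham Col3a1 -0.14, Col12a1 -0.22 and Col14a1 -0.076, and for vehicle against sham Col1a1 -0.17, Col1a2 -0.22, Col5a1 -0.20, Col5a2 -0.22 and Col6a2 -0.094. Leaving out 1 library at a time gave, for ISM012-042 against vehicle, Col1a1 -0.083 to 0.95, Col4a1 -0.061 to 0.59, Col4a2 -0.023 to 0.59, Col5a2 -0.030 to 0.77, Col12a1 -0.12 to 0.54 and Col18a1 -0.082 to 0.52. Leaving out 1 library at a time gave, for ISM012-042 against sham, Col3a1 -0.14 to 0.83, Col12a1 -0.22 to 0.43, Col14a1 -0.076 to 0.32 and Col16a1 -0.31 to 0.18. Leaving out 1 library at a time gave, for vehicle against sham, Col1a1 -0.17 to 0.58, Col1a2 -0.22 to 0.32, Col3a1 -0.55 to 0.12, Col5a1 -0.20 to 0.26, Col5a2 -0.22 to 0.33, Col5a3 -0.023 to 0.32, Col6a1 -0.26 to 0.045, Col6a2 -0.19 to 0.18, Col6a3 -0.33 to 0.12, Col12a1 -0.38 to 0.11 and Col15a1 -0.28 to 0.084. TPM give no counting error, so low levels, such as those of the 19 untested genes, cannot be given an interval.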
